A study of Homo sapiens with 6 samples.

Results

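NF-kappaB is a family of transcription factors formed by pairs of 5 related subunits, which are encoded by NFKB1, NFKB2, RELA, RELB and REL. The 10 genes described here are these 5 subunit genes and 5 genes grouped here as feedback inhibitors (NFKBIA, NFKBIE, TNFAIP3, TNIP1 and BIRC3), taken by symbol from a table of 58825 gene identifiers. The group name does not mean that each protein restrains every route of the pathway. All 10 were found once in the table and all 10 were among the 16208 genes with enough counts to be tested. They were chosen by name with the comparison of these libraries already known, so their values in it are given as a description and without p-values.

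The cells were labelled SKOV3, an established line from a human ovarian carcinoma. They received either a control siRNA (NC, n = 3 libraries) or an siRNA against the translation factor gene EIF5A2 (si-EIF5A2, n = 3 libraries), and mRNA was sequenced 48 h later. The study's methods name INTERFERin as the reagent for siRNA transfection and list a single siRNA for EIF5A2, and no untransfected group was analysed here. The study's methods state in general that experiments were repeated, but neither they nor the labels say that the 3 libraries of a group came from separate cultures, so the spread between them, which the p-values measure, may be technical. In bulk RNA, less RNA per cell and fewer cells that express a gene cannot be told apart.

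In resting cells, the subunit pairs are held in the cytoplasm by IkB proteins such as those encoded by NFKBIA and NFKBIE. Receptors of the TNF, interleukin-1 and Toll-like families activate the IKK kinase complex, which marks IkB for destruction, and the freed pairs of RELA with the NFKB1 product enter the nucleus (the canonical route). In the non-canonical route, the kinase encoded by MAP3K14 drives processing of the NFKB2 precursor, which then works with RELB. The genes of several subunits and of most of these inhibitors are themselves known targets of NF-kappaB, so the pathway feeds back on its own components. The pathway is known for inducing inflammatory and survival genes in many tissues, epithelial cancers included.

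The promoter sequences are shown first because the expression values of these libraries did not enter them. They are not independent of the choice of the genes, since several of these are known NF-kappaB targets, as said above. The same holds for the target genes below, so the shares of matches are a description. The promoter windows of RefSeq (GRCh38.p14, 250 bases before to 50 bases after the start site) held 8 of the 10 genes. RELB and NFKBIE had no entry. The kappaB consensus, the 10-base motif that the subunits bind, was searched on both strands. Of the 8 windows, 5 held at least 1 match (62.5%), and 3 held more than 1 (37.5%). Matches were counted by position, so overlapping matches such as those of REL count separately, in these windows and in those of all genes. Among the windows of all 27305 genes, the motif occurred in 1562 (5.72%) and more than once in 198 (0.725%). In the lines that follow, written 5′ to 3′ on the strand of the gene, capitals mark the matched bases and 15 flanking bases are given on each side.
NFKB1: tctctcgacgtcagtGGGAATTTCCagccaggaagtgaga
REL: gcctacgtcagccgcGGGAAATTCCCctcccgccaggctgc
NFKBIA: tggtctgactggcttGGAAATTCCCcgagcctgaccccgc
TNFAIP3: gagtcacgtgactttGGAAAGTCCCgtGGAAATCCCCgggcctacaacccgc
BIRC3: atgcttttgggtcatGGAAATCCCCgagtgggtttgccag
BIRC3: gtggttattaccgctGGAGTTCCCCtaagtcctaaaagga

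The NFKB1 stretch lies at chr4:102501295-102501334 on the plus strand, with the match at bases -49 to -40 from the start site. The REL stretch (chr2:60881512-60881552, plus strand) holds 2 matches that overlap on opposite strands, at -47 to -37. In NFKBIA (chr14:35404806-35404845, minus strand) the match lies at -81 to -72 and is read on the opposite strand. TNFAIP3 (chr6:137867177-137867228, plus strand) holds 2 matches side by side between -67 and -46, both read on the opposite strand. BIRC3 holds 1 match at -199 to -190 (chr11:102317270-102317309) and 1 at -135 to -126 (chr11:102317334-102317373). The gene is on the plus strand, and both matches are read on the opposite strand. The windows of NFKB2, RELA and TNIP1 held no match, which says only that these letters are absent from the windows. A single RefSeq window was used for each gene. That of TNIP1 (chr5:151065082-151065381, minus strand) lies within the gene, away from the outermost annotated start at 151093577. That of RELA (chr11:65663808-65664107, minus strand) lies beyond the annotated gene start at 65663094. Other start sites of these genes were not searched. The share was 9.52% in 63 windows of other pathway genes and 52.9% in 34 windows of NF-kappaB target genes, the lists described further on. A match is a description of the sequence and does not show that a subunit was bound there in these cells.

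**Figure D1:**
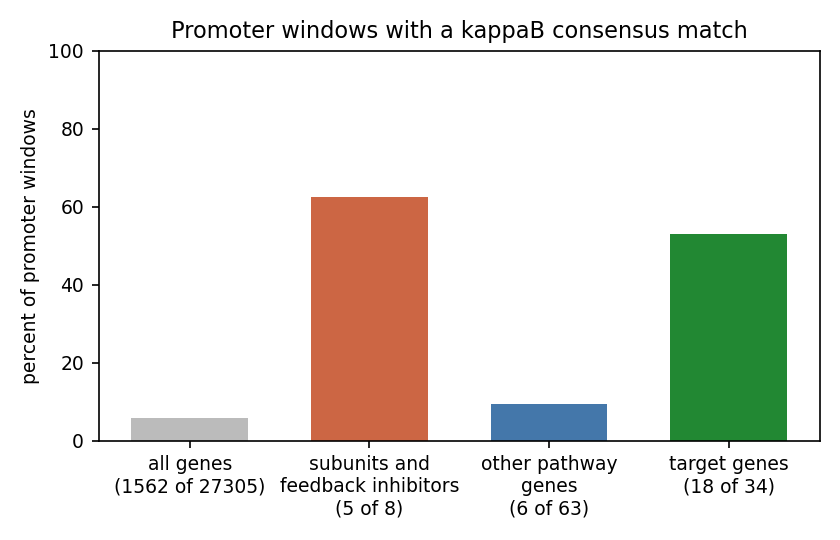
Percent of promoter windows (y axis, from 0 to 100) that hold at least 1 match to the kappaB consensus on either strand, for all genes and for the 3 gene lists, with the counts under each bar. The bar of the subunit and feedback inhibitor genes stands at 62.5% (5 of 8 windows), next to 5.72% for all genes.

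The libraries held 46900204 to 74142267 estimated counts, and levels are given as CPM, which are counts scaled to a common library size. EIF5A2 was at 27.8, 29.8 and 29.9 CPM in NC, against 2.76, 4.04 and 4.27 CPM after knockdown, so the targeted gene was lower in every library labelled as knockdown. Of 7 markers of SKOV3 and epithelial cells, KRT7, KRT8, KRT18, PAX8 and ERBB2 were at or above 42.1 CPM in every library, EPCAM lay between 1.15 and 1.68 CPM, and MUC16 was at 0 in all 6 libraries. ERBB2, which is known to be amplified in SKOV3, lay between 42.1 and 48.6 CPM, below KRT7, KRT8, KRT18 and PAX8 in every library. Whether the gene is amplified in these cells, and whether they match the line they are labelled as, was not tested. Of 12 markers of leukocytes, endothelium and fibroblasts, PTPRC, CD3E and MS4A1 were among those at 0 in all libraries, and the summed level of the 12 was 3.00 to 4.07 CPM in NC and 1.92 to 4.27 CPM in si-EIF5A2 libraries. The summed level of the 7 SKOV3 and epithelial markers was 1502 to 1669.7 CPM in NC and 953 to 1165 CPM in si-EIF5A2 libraries. KRT7 was at 355 to 407 CPM in NC and at 201 to 218 CPM after knockdown, and the endothelial marker PECAM1 at 1.62 to 2.04 CPM and 0 to 0.667 CPM. The part of these shifts in the results that follow was not tested.

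The 10 genes differed widely in level. Expressed per kilobase of exon so that genes can be compared, TNIP1 was the most abundant in NC libraries with 71.8 ± 6.31 CPM per kb (SD, n = 3), and REL the least with 0.114 ± 0.0401 CPM per kb (SD, n = 3). TNIP1 was above 96.1% of the genes tested, REL above only 6.41%. NFKB2 (36.9 ± 0.861 CPM per kb) came next, followed by NFKBIA (32.3 ± 2.94), RELA (25.2 ± 7.97), NFKBIE (17.2 ± 1.23), NFKB1 (11.9 ± 0.187), RELB (10.6 ± 3.56), TNFAIP3 (3.6 ± 0.302) and BIRC3 (3.54 ± 0.259; SD, n = 3 each). In this order, the ranges of NFKBIA and RELA, of RELA and NFKBIE, of NFKB1 and RELB, and of TNFAIP3 and BIRC3 overlapped between neighbours. The remaining neighbours did not overlap. In si-EIF5A2 libraries the order was NFKB2 (71.2 ± 1.57 CPM per kb), NFKBIA (49.2 ± 2.30), RELB (34.8 ± 2.83), NFKBIE (33.9 ± 3.47), RELA (31.7 ± 4.34), TNIP1 (21.1 ± 1.75), NFKB1 (18 ± 0.482), BIRC3 (15.4 ± 1.94), TNFAIP3 (3.62 ± 0.534) and REL (0.0176 ± 0.00545; SD, n = 3 each). TNIP1 thus moved from rank 1 to rank 6, and RELB from rank 7 to rank 3. The ranges of RELB and NFKBIE, of NFKBIE and RELA, and of NFKB1 and BIRC3 overlapped. Exon length here is that of all annotated exons of a gene merged. Which transcripts these cells express was not examined, so ranks, shares and ratios between genes are approximate.

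After EIF5A2 knockdown, 6 of the 10 genes were called higher (NFKB1, NFKB2, RELB, NFKBIA, NFKBIE and BIRC3) and 2 were called lower (REL and TNIP1). RELA and TNFAIP3 were not called. A gene was called when its fold change exceeded 1.5 and edgeR's quasi-likelihood test gave an adjusted p below 0.05. By this rule 24.6% of all genes tested were called, 11.1% as higher and 13.6% as lower. In the same 8 genes the NC and si-EIF5A2 ranges did not overlap, 6 with higher and 2 with lower values after knockdown, beside 24.7% and 26.5% of all genes tested (51.2% in both directions together). The median log2 fold change of the 10 genes was 0.60, against -0.01 over all genes tested. With DESeq2 in place of edgeR, 6 genes were again called higher and 2 lower, where 22.8% of 19087 genes were called, 10% as higher and 12.8% as lower. When an unadjusted edgeR p under 0.05 with a 2-fold limit was used instead, 2 were called higher and 2 lower, beside 5.38% and 9.24% of all genes tested. With an adjusted p under 0.05 and no fold limit, 6 were called higher and 2 lower, beside 18% and 18.9% of all genes tested. Since the genes were chosen with this comparison in view, nothing is read from these counts.

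**Figure D2:**
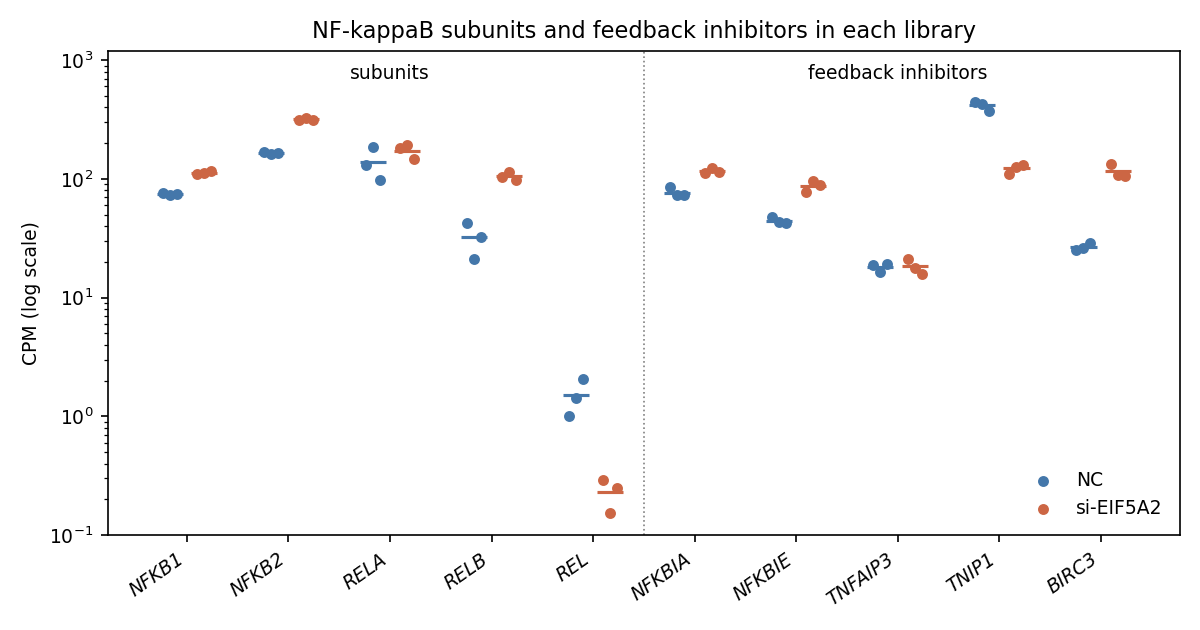
Level of the 5 subunit genes and the 5 feedback inhibitor genes in each library, in CPM on a log axis, with NC libraries in blue, si-EIF5A2 libraries in orange and a bar at each group mean (n = 3). The groups overlap in RELA and TNFAIP3 and are apart in the other 8 genes.

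Among the subunits, NFKB2 encodes the precursor of the non-canonical route and lies on the plus strand of chromosome 10 from 102394110 to 102402529 (GENCODE release 29, GRCh38). It was at 169, 161 and 166 CPM in NC, against 316, 327 and 314 CPM after knockdown. Replicates lay close together and the groups were far apart. The log2 fold change was 0.95 (standard error 0.06), a 1.93-fold higher mean, and leaving out any library gave 0.93 to 0.96.

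RELB, the partner of the NFKB2 product, lies on the plus strand of chromosome 19 from 45001430 to 45038198. It was at 42.9, 21.3 and 32.5 CPM in NC, against 104, 115 and 98.2 CPM after knockdown. The NC libraries were scattered, yet the highest of them was below every si-EIF5A2 library. The log2 fold change was 1.71 (standard error 0.25), the largest positive value among the subunits, with a range from 1.49 to 1.98 when a library was left out.

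NFKB1, whose product is the usual partner of RELA, lies on chromosome 4 from 102501329 to 102617302. It was at 75.7, 73.4 and 74.8 CPM in NC, against 109.9, 113 and 116 CPM after knockdown. Every knockdown library was higher, by a mean of 1.51-fold. The log2 fold change of 0.60 (standard error 0.07) sat at the limit of 1.5-fold, and the call was lost to that limit when NC replicate 2 (0.58) or si-EIF5A2 replicate 3 (0.57) was left out.

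RELA encodes the main transactivating subunit of the canonical route and is found on the minus strand, chromosome 11 from 65653596 to 65663094. It was at 129.7, 185 and 98.5 CPM in NC, against 181, 192 and 146 CPM after knockdown. NC replicate 2 was as high as the knockdown libraries, so the groups overlapped. The log2 fold change was 0.33 with a standard error of 0.24 and a 95% interval from -0.14 to 0.80, which includes both no difference and a 1.5-fold difference. Without NC replicate 2 it was 0.60 and passed the call rule.

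REL, a subunit best known from lymphocytes, was close to the limit of detection. Its NC libraries held 74, 102 and 97 counts and its knockdown libraries 15, 8 and 12, or 1.01, 1.44 and 2.06 CPM against 0.293, 0.153 and 0.25 CPM. One fragment is worth about 3.75 counts in this table, so these are about 20, 27 and 26 fragments in NC and 4, 2 and 3 fragments in si-EIF5A2 libraries. Summed over the libraries and scaled for depth, 15.6% of the NC level was left, with a 95% exact binomial interval from 6.84% to 31.2% that covers counting error only. A level of 3 fragments corresponds to 0.154 to 0.239 CPM per library, so the knockdown libraries lay at about this limit. The fitted log2 fold change was -2.68 (standard error 0.46). Exons of REL share 5702 bases with another annotated gene on the same strand (AC010733.2), which makes its counts less certain.

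The subunits also differed in their proportions. As a share of the summed CPM per kb of the 5 subunit genes, NFKB2 made up 43.7 ± 3.55% in NC and 45.8 ± 1.52% in si-EIF5A2 libraries (SD, n = 3 each), and these ranges overlapped. RELB made up 16.1%, 7.91% and 13.7% in NC, against 22.0%, 23.1% and 21.9% after knockdown. RELA made up 27.1%, 38.1% and 23.1% in NC, against 21.3%, 21.4% and 18.1% after knockdown. The RELB share was thus higher and the RELA share lower in every knockdown library, and NC replicate 2 held the lowest RELB and the highest RELA share of all. The ratio of RELB to RELA was 0.595, 0.207 and 0.593 in NC and 1.03, 1.08 and 1.21 in si-EIF5A2 libraries. The ratio of NFKB2 to NFKB1 was steadier, with 3.11, 3.06 and 3.09 in NC and 4.01, 4.06 and 3.79 in si-EIF5A2 libraries.

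**Figure D3:**
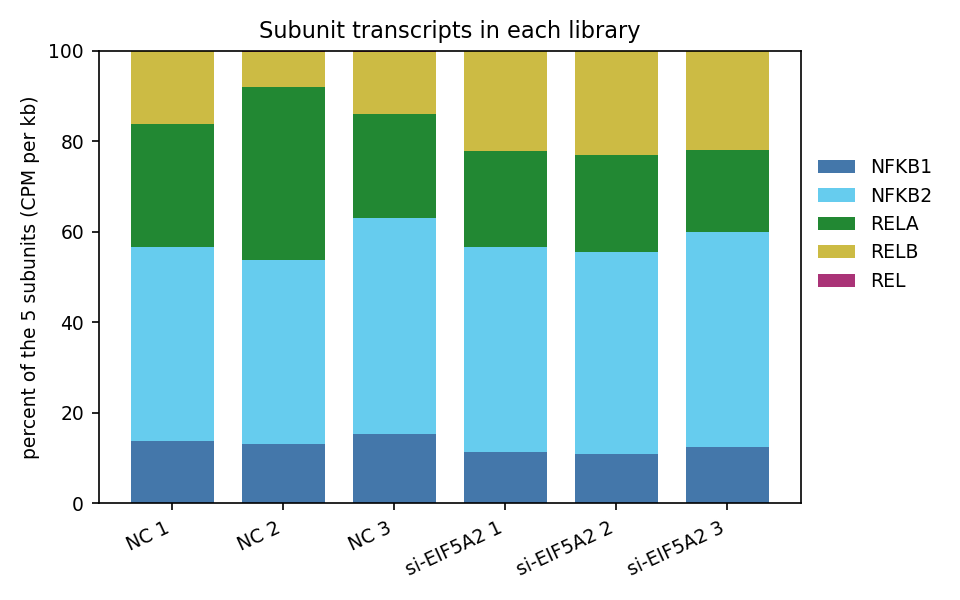
Share of each subunit gene in the summed CPM per kb of exon of the 5 subunit genes, in percent (y axis), for each of the 6 libraries. RELB fills 7.91% to 16.1% of the NC bars and 21.9% to 23.1% of the si-EIF5A2 bars, and REL, at most 0.201%, is too thin to be seen.

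Among the inhibitors, the IkB genes were higher after knockdown. NFKBIA encodes IkB-alpha, the classic early feedback inhibitor, and is found on the minus strand, chromosome 14 from 35401511 to 35404749. It was at 84.8, 72.5 and 73.0 CPM in NC, against 113, 123 and 114 CPM after knockdown. The groups did not overlap, and the log2 fold change was 0.60 (standard error 0.09). The call was lost to the fold limit when NC replicate 2, NC replicate 3 or si-EIF5A2 replicate 2 was left out, with 0.56 in each case.

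NFKBIE encodes IkB-epsilon and lies on chromosome 6 from 44258166 to 44265788. It was at 48.0, 43.0 and 42.2 CPM in NC, against 78.0, 95.8 and 88.8 CPM after knockdown. The groups were well apart, with a log2 fold change of 0.98 (standard error 0.10). The ratio of NFKBIE to NFKBIA per kilobase was 0.521, 0.545 and 0.531 in NC and 0.636, 0.717 and 0.714 in si-EIF5A2 libraries. Relative to NFKBIA, NFKBIE was thus higher in each knockdown library, while the ratio of NFKBIA to RELA overlapped between the groups (1.37 ± 0.417 against 1.57 ± 0.199, SD, n = 3 each).

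BIRC3 encodes a ubiquitin ligase of the TNF receptor complex that, with its relative BIRC2, also keeps the MAP3K14 kinase low. It lies on chromosome 11 from 102317450 to 102339403. It was at 25, 26.1 and 28.8 CPM in NC, against 133, 108 and 106 CPM after knockdown. This was the largest positive difference of the 10 genes, a log2 fold change of 2.12 (standard error 0.11) or a 4.35-fold higher mean, and leaving out any library gave 2.01 to 2.17.

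TNFAIP3 and TNIP1 encode a pair of proteins that act together, the ubiquitin-editing enzyme A20 and the adaptor ABIN that binds it. TNFAIP3, on chromosome 6 from 137867188 to 137883312, was at 18.8, 16.4 and 19.3 CPM in NC, against 21.2, 17.9 and 15.9 CPM after knockdown. The groups overlapped fully. Its log2 fold change was 0.01 (standard error 0.14, 95% interval from -0.26 to 0.28), so a difference of 1.5-fold lay outside the interval. Its promoter window held 2 kappaB matches, as printed above, as did those of BIRC3 and REL, though in REL the 2 overlap and form a single stretch.

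TNIP1, on chromosome 5 (minus strand) from 151029945 to 151093577, was at 447, 425 and 375 CPM in NC, against 111, 125 and 131 CPM after knockdown. Every knockdown library was far below every NC library, at a mean of 29.5% of the NC level. Its log2 fold change of -1.76 (standard error 0.10) lay between -1.84 and -1.71 with a library left out. The ratio of TNIP1 to TNFAIP3 per kilobase was 20.7, 22.5 and 17 in NC and 4.58, 6.10 and 7.21 in si-EIF5A2 libraries.

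**Figure D4:**
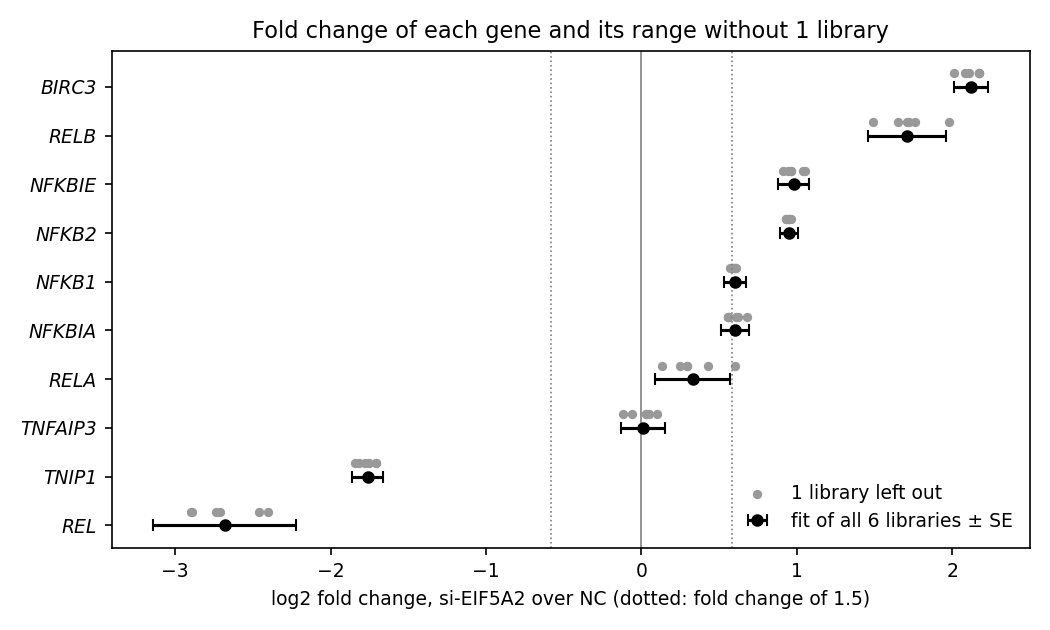
Log2 fold change of each gene (x axis, si-EIF5A2 over NC) from the fit of all 6 libraries, with its standard error as a bar, and the values with 1 library left out as grey points above it. REL (-2.68) and TNIP1 (-1.76) lie to the left and BIRC3 (2.12) and RELB (1.71) farthest to the right, while NFKB1 and NFKBIA sit at the dotted limit of a 1.5-fold change.

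Genes with the most similar pattern were sought among 8843 genes that averaged 10 CPM or more, by the root mean square difference of centred log2 CPM over the 6 libraries. For NFKB2 these were GNA12 (0.0299), DNAJB1 (0.0331) and CKAP4 (0.0335). For NFKBIA they were ATP5MK (0.0328), RBM15B (0.0350) and MRPL55 (0.0350). Nothing is read from this likeness about function or control.

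The remaining pathway was examined through a list of 74 genes outside the 10, grouped by role. Of these 71 were tested, 18 rose (25.4%) and 5 fell (7.04%) by the same call rule, beside 11.1% and 13.6% of all genes tested. The median log2 fold change was 0.29. This list was drawn up with earlier results of these data known. Genes named from it and from the target list were picked because they were called, or after their values were seen. Their adjusted p-values are therefore a description and not independent tests, and nothing is read from the counts of a single role. The 3 genes not tested (IRAK3, NOD2 and TNFRSF1B) were at or below 0.219 CPM.

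Of 4 other IkB genes and 2 genes of IkB-binding proteins (NKIRAS1 and NKIRAS2), 3 rose (50%) and none fell. The shares of all genes tested were 11.1% and 13.6%. NFKBIZ, a nuclear IkB protein that works as a coactivator, rose from 10.6, 10.2 and 11.2 CPM to 27.3, 23.2 and 21.6 CPM (log2 fold change 1.17, adjusted p = 0.000241 from edgeR). NFKBIB, which encodes IkB-beta, rose from 18.6 ± 1.69 to 41.2 ± 5.32 CPM (SD, n = 3 each, edgeR adjusted p = 0.000285). NKIRAS2, a small GTPase-like protein that binds IkB, had a log2 fold change of 0.65 (edgeR adjusted p = 0.00414), and its call was lost to the fold limit without NC replicate 3 (0.56). BCL3, the nuclear partner of the NFKB1 and NFKB2 products, averaged 12.9 ± 2.66 CPM in NC, against 12.7 ± 0.919 CPM after knockdown (SD, n = 3 each).

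Among 12 kinases and their partners, 2 rose (16.7%) and 1 fell (8.33%), beside 11.1% and 13.6% of all genes tested. MAP3K14, the kinase of the non-canonical route on chromosome 17, was at 69.0, 70.7 and 58.8 CPM in NC, against 109, 186 and 97.7 CPM after knockdown (log2 fold change 0.99, edgeR adjusted p = 0.0272). The groups did not overlap, but si-EIF5A2 replicate 2 was much the highest, and 713 exon bases are shared with the antisense gene MAP3K14-AS1. Without NC replicates 1, 2 and 3 in turn, the edgeR adjusted p was 0.0902, 0.0755 and 0.0998. With no filter on low counts it was 0.0813. TBK1, an IKK-related kinase, rose from 22.4 ± 1.18 to 35.1 ± 3.02 CPM (SD, n = 3 each, edgeR adjusted p = 0.00157), and its call was lost to the fold limit without si-EIF5A2 replicate 3 (0.58). IKBKG, the regulatory subunit of the IKK complex, fell from 25.8 ± 2.17 to 14.5 ± 1.31 CPM (SD, n = 3 each, log2 fold change -0.83, edgeR adjusted p = 0.000956). IKBKG has a near-identical pseudogene copy, so its counts are less certain. The catalytic subunits were not called, with log2 fold changes of 0.39 for CHUK (standard error 0.18) and -0.41 for IKBKB (standard error 0.15).

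Of 24 adaptors and ubiquitin ligases tested, 9 rose (37.5%) and 2 fell (8.33%), beside 11.1% and 13.6% of all genes tested. IRAK2, a kinase-like adaptor of the interleukin-1 receptor, rose from 32.8, 29 and 28.2 CPM to 68.5, 68.9 and 68.2 CPM (log2 fold change 1.19, edgeR adjusted p = 4.07e-05). TRAF3, the adaptor through which MAP3K14 is degraded, rose from 24.7 ± 2.36 to 48.4 ± 1.70 CPM (SD, n = 3 each, edgeR adjusted p = 0.000206). BIRC2, the neighbour of BIRC3 on chromosome 11 (102347211 to 102378670), was at 29.9, 32.8 and 22.2 CPM in NC, against 70.8, 35.6 and 69.8 CPM after knockdown. Its edgeR adjusted p was 0.0362 and its log2 fold change 1.05. That call was lost when any library but si-EIF5A2 replicate 2 was left out, with adjusted p from 0.0706 to 0.108. The same held with no filter on low counts (edgeR adjusted p = 0.111) and with the replicate number as a block (0.106). TRAF5 (log2 fold change -0.87, edgeR adjusted p = 0.0032) and NOD1 (-0.78, edgeR adjusted p = 0.00652), an adaptor and a bacterial sensor, fell.

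Of 9 deubiquitinases and A20 partners, 3 rose (33.3%) and none fell, beside 11.1% and 13.6% of all genes tested. TNIP3, a relative of TNIP1, rose from 1.86 ± 0.137 CPM in NC to 8.85 ± 1.91 CPM after knockdown (SD, n = 3 each, log2 fold change 2.25, edgeR adjusted p = 0.000106). TAX1BP1, an adaptor of A20, rose from 39.2 ± 2.63 to 76.7 ± 1.48 CPM (SD, n = 3 each, edgeR adjusted p = 8.45e-05). RNF11, another A20 partner, had a log2 fold change of 0.59 (edgeR adjusted p = 0.00792). It lost its call when NC replicate 1 (0.49) or si-EIF5A2 replicate 1 (0.51) was left out. The same held with upper-quartile normalization (0.58), no filter on low counts (0.56) and at least 10 counts in every library (0.58). TNIP2, the other relative of TNIP1, averaged 53.9 ± 7.31 CPM in NC, against 50.6 ± 9.88 CPM after knockdown (SD, n = 3 each). CYLD, a deubiquitinase that damps the pathway, had a log2 fold change of 0.13 with a standard error of 0.13.

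Of the 5 genes of the SCF ligase that destroys IkB, 1 fell (20%) and none rose. Of all genes tested, 13.6% fell and 11.1% rose. BTRC fell from 24.6, 27.0 and 27.6 CPM to 9.96, 7.30 and 8.76 CPM (log2 fold change -1.61, edgeR adjusted p = 9.1e-05). FBXW11, of the same 5 genes, averaged 82.5 ± 6.72 CPM in NC, against 111 ± 7.26 CPM after knockdown (SD, n = 3 each, edgeR adjusted p = 0.00672). Its groups did not overlap, but its log2 fold change of 0.43 missed the fold limit. Of 15 receptors tested, 1 rose (6.67%) and 1 fell (6.67%), beside 11.1% and 13.6% of all genes tested. IL1RAP, the shared chain of interleukin-1 family receptors, rose from 19.2 ± 1.71 to 35.2 ± 3.65 CPM (SD, n = 3 each, edgeR adjusted p = 0.000679). TLR4, named after its values were seen, fell from 1.23 ± 0.235 to 0.491 ± 0.108 CPM (SD, n = 3 each, edgeR adjusted p = 0.028). It rested on 19, 27 and 28 counts in the knockdown libraries, where 1 fragment is worth about 3.75 counts. The call of TLR4 was lost with the replicate block (edgeR adjusted p = 0.0598). That call was also lost without NC replicate 2, NC replicate 3, si-EIF5A2 replicate 1 or si-EIF5A2 replicate 2 (edgeR adjusted p from 0.0546 to 0.0996). TNFRSF1A, the main TNF receptor, averaged 435 ± 20.8 CPM in NC, against 292 ± 24.7 CPM after knockdown, which missed the fold limit with a log2 fold change of -0.57 (edgeR adjusted p = 0.00115). It passed that limit when NC replicate 3 (-0.62) or si-EIF5A2 replicate 1 (-0.65) was left out.

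**Figure D5:**
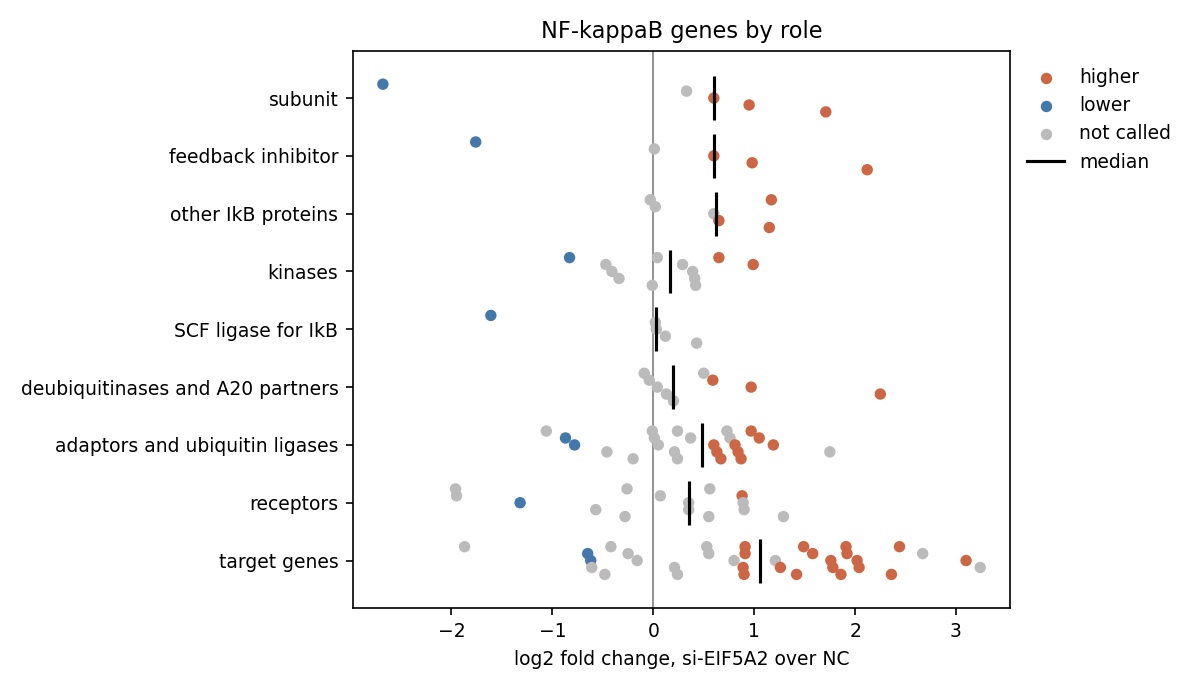
Log2 fold change (x axis, si-EIF5A2 over NC) of each tested gene by role, with genes called higher in orange, called lower in blue, not called in grey, and a black bar at the median of each role. The target genes have the rightmost median at 1.06, and the SCF ligase genes a median of 0.03.

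The target genes were a list of 45 known NF-kappaB-induced genes outside the 10 and outside the pathway list. Like the pathway list, it was drawn up with earlier results of these data known, so its counts and median are a description and not independent evidence of a direction. Of these 34 were tested, 18 rose (52.9%) and 2 fell (5.88%), beside 11.1% and 13.6% of all genes tested, and their median log2 fold change was 1.06. Of the 11 genes not tested, none exceeded 0.480 CPM and 5 were at 0 in every library. CXCL8, a neutrophil chemokine, rose from 41.4, 44.1 and 40.9 CPM to 378, 374 and 336 CPM (log2 fold change 3.10, edgeR adjusted p = 4.18e-06). CXCL3, a related chemokine, rose from 12 ± 0.439 to 65.2 ± 12.4 CPM (SD, n = 3 each, edgeR adjusted p = 1.47e-05). The complement gene C3 had a log2 fold change of 2.36 (edgeR adjusted p = 2.26e-05), the cytokine gene CSF2 2.04 (edgeR adjusted p = 0.000226), the cytokine gene IL32 2.02 (edgeR adjusted p = 5.57e-06) and the surface protein gene CD83 1.91 (edgeR adjusted p = 1.2e-05). CXCL3 has close paralogs among the CXCL genes, so its counts are less certain. CSF2 was low, at 1.19 ± 0.197 CPM in NC and 4.92 ± 0.353 CPM after knockdown (SD, n = 3 each). Its NC libraries held 100, 86 and 46 counts, at about 3.75 counts a fragment. In each of these 6 genes, all si-EIF5A2 libraries were above all NC libraries, but they were named for their large rises. Of the 34 target genes tested, 25 did not overlap between the groups with higher values after knockdown, and 6 with lower values. Over all genes tested these shares were 24.7% and 26.5%.

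The 2 target genes that fell lost their calls under several alternatives. MMP9, a matrix metalloproteinase, averaged 20.4 ± 4.74 CPM in NC, against 13 ± 1.59 CPM after knockdown (SD, n = 3 each, edgeR adjusted p = 0.0252). SAA1, an acute phase protein whose close paralog SAA2 makes its counts less certain, averaged 3.64 ± 0.605 and 2.36 ± 0.182 CPM (SD, n = 3 each, edgeR adjusted p = 0.0479). MMP9 lost its call without NC replicate 1, si-EIF5A2 replicate 1 or si-EIF5A2 replicate 2 and with the replicate number as a block (adjusted p = 0.0675). SAA1 lost its call without any 1 of the 6 libraries and with the block (adjusted p = 0.0818). The same held with DESeq2 (adjusted p = 0.0762). In edgeR it also held with RLE (adjusted p = 0.0509), library size only (0.0539) and no filter on low counts (0.0635). With the block, none of the 34 target genes was called lower, and the replicate numbers did not pair the libraries.

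A kappaB match in the promoter window was present in 7 of 14 windows of target genes that rose (CXCL1, CXCL2, CXCL3, CCL20, IL32, SDC4 and PTX3), in 5 of 12 windows of those not called, and in 6 of 8 windows of those with too few counts to be tested. Among the other pathway genes, it was present in 4 of 17 windows of genes that rose (NFKBIZ, TRAF3, TICAM1 and TNIP3), in 2 of 39 of those not called (BCL3 and MAP3K8) and in 0 of 4 of those that fell. Among the subunit and inhibitor genes, it was present in 3 of 4 windows of genes called higher, in 1 of 2 of genes called lower (REL, not TNIP1) and in 1 of 2 of those not called (TNFAIP3, not RELA). These shares were not tested against each other.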

How the data were processed

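Libraries of mRNA were sequenced as paired ends. The authors estimated expression with StringTie and ballgown. The table the authors deposited holds estimated counts for each gene, as whole numbers, not divided by library size or length and with no replicates pooled. The lowest values fall on multiples of roughly 3.75 counts, which was taken as the worth of 1 fragment. The submitters' processing notes list Bowtie 0.12.2 and the mouse builds mm8 and mm9, without a role, although the identifiers are human. The aligner, build and annotation behind the table are otherwise not given in the sources used here. Of 58825 identifiers, 58817 had a symbol and 58552 were in GENCODE release 29, which gave positions and exon lengths. SOD2 had 2 identifiers, of which the one with the longer exons was used.

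The 6 libraries were fitted with edgeR 4.0.16 (R 4.3.3): filterByExpr, TMM, robust dispersion, quasi-likelihood test, with Benjamini-Hochberg adjustment over 16208 genes. A standard error was obtained as the size of the log2 fold change over the square root of F. CPM uses TMM library sizes. The steps were also run on simulated counts, with a far smaller share of changed genes than was called here. That run does not show how well the steps work on these data. The genes, the lists and the tests were chosen with earlier results of these data known.

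The genes named are the 10 genes, EIF5A2, and in each role the 3 called genes (6 for targets) with the largest rise and the 3 (6) with the largest fall at a mean of at least 1 CPM. Genes named beyond this rule (TLR4, BCL3, CHUK, IKBKB, TNIP2, CYLD, FBXW11, TNFRSF1A and genes listed by promoter match or as not tested) were chosen after their values were seen. DESeq2 1.42.0 was among the alternatives.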

Additional observations from a re-analysis of the deposited data

How the results depend on the processing

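Under the alternatives (DESeq2, RLE or upper-quartile normalization, library size only, 2 other filters on low counts, the replicate number as a block, counts divided by their step, each library left out in turn, and 2 other call rules), no called value of a named gene changed sign. Of 139 values of the 10 genes, 129 kept their side of the call rule, 9 lost the call and 1 gained it, and the losses were those of NFKB1 and NFKBIA at the 1.5-fold limit. For NFKB1 they included upper-quartile normalization (0.58), no filter (0.56) and at least 10 counts in every library (0.58), and for NFKBIA no filter (0.57). With an unadjusted p under 0.05 and a 2-fold limit (14.6% of all genes), 2 of the 10 genes were called higher, 7 pathway genes higher, 3 pathway genes lower and 1 target gene lower. With at least 10 counts in every library, 1 of the 10 genes was called lower, since REL has fewer and is not tested, and the target median was 0.90. The number of target genes called lower was 1 with RLE, with library size only and without a filter, 0 with the replicate block, and 0 to 1 with a library left out. The pathway median log2 fold change was 0.24 with DESeq2, 0.21 without a filter, 0.24 with the replicate block, and 0.21 to 0.33 with a library left out. The target median was 0.91 with DESeq2, 0.88 without a filter, 1.20 with counts divided by their step, and 0.96 to 1.13 with a library left out. With a library left out, 5 to 6 of the 10 genes were called higher and 2 lower, and of the pathway genes 14 to 20 were called higher and 4 to 6 lower, while 17 to 21 target genes were called higher. The share of all genes called is given only for the edgeR fit of all 6 libraries, its 2 other call rules and DESeq2. Under the remaining alternatives the counts lack that share, and nothing is read from them about the lists.

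The labels give both groups the numbers 1 to 3, but nothing ties equal numbers to a shared culture. Deviations of equally numbered libraries from their group means correlated with r of -0.0244, 0.00522 and -0.00269, and 0 of 3 NC libraries correlated best with its own number. With the replicate block, 44 of 50 values were unchanged in call or size, and BIRC2 (adjusted p = 0.106), TLR4 (0.0598), MMP9 (0.0675) and SAA1 (0.0818) lost their calls. TNFRSF1A gained a call without a filter (-0.61) and with upper-quartile normalization (-0.59). With 3 libraries a group and REL at a few fragments, small differences in low genes are not detectable at this depth.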
